A study of Rattus norvegicus with 84 samples.

Results

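Extracellular vesicles (EVs) are membrane particles that cells release into body fluids, and those of the plasma carry mRNA fragments from blood cells, the vessel wall and organs such as the liver. Described here is the mRNA of plasma EVs from rats 31 days after a stroke, set against that of healthy rats. Of the 84 libraries of the series, 6 were chosen by their labels alone, namely the plasma mRNA libraries of the control group at 31 days (3 rats) and of the healthy group (3 rats). Rats of the control group were male Sprague-Dawley rats aged 8 to 12 weeks, labelled WT, whose middle cerebral artery was occluded for 90 min and which received saline at 3 days after stroke, in place of the human neural stem cells (hNSCs) given to the treated group. Healthy rats were adult male Sprague-Dawley rats without surgery. The 8 to 12 weeks are the age at occlusion, 31 days before sampling, and no age in weeks is given for healthy rats. Occlusion, surgery, saline and any difference in age therefore cannot be told apart in this comparison. Each library came from 1 rat. The other plasma mRNA libraries, which served to estimate the spread, were 3 each of the control group at 4 and 10 days and of the hNSCs group at 4, 10 and 31 days.

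Plasma EV mRNA is a mixture. Globin mRNA enters it from red cells and reticulocytes, platelet factor and integrin mRNA from platelets, and albumin, transferrin and apolipoprotein mRNA from hepatocytes, which secrete most plasma proteins. In such a mixture, fewer vesicles of one origin and less RNA per vesicle cannot be told apart, and a larger share of one origin lowers the shares of the others.

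The 6 libraries held 24655822 to 49824782 counts, with 58.3% to 71.6% of them assigned to annotated genes, of which 10006 to 13661 had at least 1 count. Levels are given as CPM, counts scaled to library size, after TMM scaling, a factor per library that aligns most genes. Both groups had the same leading genes. By mean FPKM, which corrects for transcript length, Hba2 and Hba1 ranked 1 and 2 in both groups, and 17 of the 20 and 86 of the 100 most abundant genes were shared. The 2 alpha-globin genes are near-identical copies, so their separate values are uncertain. Brain genes were scarce. Of 23 neuron markers 12 passed the filter on low counts, with a summed level of 43.6 to 155.6 CPM in healthy and 95.5 to 145.0 CPM in 31-day libraries, and Nefh, Grin1, Slc17a7 and Vsnl1 were at 0 counts in all 6 libraries. Of 14 astrocyte and oligodendrocyte markers 8 passed, with 229 to 432 CPM and 192 to 255 CPM, while Aqp4, Slc1a2, Mog, Mag and Olig1 were at 0. The median log2 fold changes of the neuron and glia members tested, 1.42 and 0.49, rest on these sparse counts.

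Healthy rat 2 and 31-day rat 3 stood apart from their groups. Healthy rat 2 held a summed level of 35835 CPM over 30 platelet genes against 2963 and 3967 CPM in the other two healthy rats, and it was the highest of the 6 libraries for 29 of these 30 genes. Among 31-day rats, rat 3 held the most hemoglobin, and its profile correlated less with those of the other 31-day rats (Pearson r of 0.72 and 0.73 across 14720 genes, which are not independent replicates) than with those of healthy rats 1 and 3 (r of 0.81 and 0.82). By contrast, 31-day rats 1 and 2 correlated with r of 0.86, and healthy rats 1 and 3 with r of 0.87. Of 9673 genes with a plasma median over 100 counts, 1089 had no count in 31-day rat 3, against 43 to 376 in the other 5 libraries. Values are therefore given with and without these libraries where they rest on them.

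Of 14720 annotated genes tested, edgeR called none as higher or lower at 31 days than in the healthy group at an adjusted p under 0.05 and over 1.5-fold (0% called, smallest adjusted p = 0.554). At an unadjusted p under 0.05 and the same fold limit, 143 genes were higher (0.971%) and 556 lower (3.78%). DESeq2 called 168 genes higher (1.14%) and 481 lower (3.27%). Of these DESeq2 calls, 28 of the 168 and 141 of the 481 had levels that did not overlap between the 3 + 3 libraries, and 224 of the 481 had their highest level in healthy rat 2. That library was highest for 20.99% of all genes tested. Limma on log2(FPKM + 1) called 3 genes in each direction. Levels did not overlap between the groups for 639 genes higher at 31 days (4.34%) and 1154 lower (7.84%). The median log2 fold change of all genes was −0.09. Standard errors were wide, with a median of 1.82 on the log2 scale over all genes and of 0.44 for the 1686 genes with a mean over 100 CPM.

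**Figure D1:**
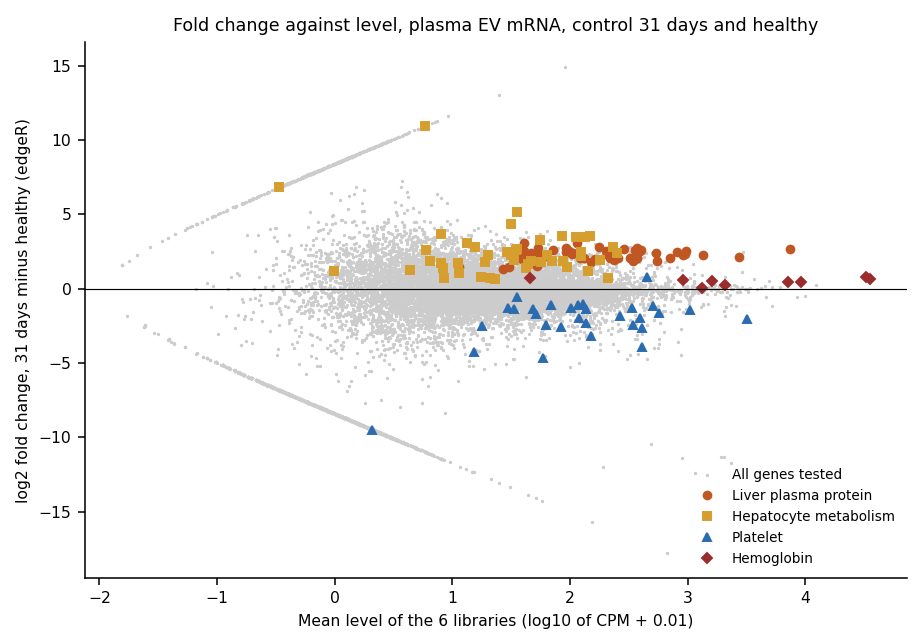
The log2 fold change (31 days minus healthy, edgeR) of each gene tested is plotted against its mean level over the 6 libraries, with the members of 4 gene lists in colour. Liver plasma protein and hepatocyte metabolism genes lie above 0 and nearly all platelet genes below it, hemoglobin genes lie slightly above 0, and the lines of grey points are genes without counts in one group.

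Liver mRNA had the largest median difference of the 26 lists with all 6 libraries (without healthy rat 2 the sparse neuron list was above it at 3.06, and without 31-day rat 3 the B cell list was farther from 0 at −2.89). The liver plasma protein list holds genes for proteins that hepatocytes secrete. All 55 members tested had a positive log2 fold change, between 1.32 and 3.08 with a median of 2.33, and neither edgeR nor DESeq2 called any. At an unadjusted p under 0.05 and over 1.5-fold, 7 of 55 were higher and none lower, beside 0.971% and 3.78% of all genes. The summed level was 6128, 13077 and 4794 CPM in healthy rats 1, 2 and 3 and 68177, 47668 and 8448 CPM in 31-day rats 1, 2 and 3. Rats 1 and 2 of the 31-day group thus lay above each healthy rat, and 31-day rat 3 lay between healthy rats 1 and 2. The median was 2.78 without 31-day rat 3 and 2.80 without healthy rat 2, and it ranged from 1.70 to 2.80 when each of the 6 libraries was left out in turn. Each of these fits kept 31-day rat 1 or 2, so the range cannot show the median without both. Each of the 55 genes had its highest level in 31-day rat 1 or 2, and 5 of the 55 (9.09%, beside 4.34% of all genes) did not overlap between groups.

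Alb, which encodes albumin, the main plasma protein, had 1478, 3325 and 1300 CPM in the healthy rats and 21927, 14260 and 1924 CPM in the 31-day rats. Means were 2034 ± 1121 and 12704 ± 10092 (SD, n = 3 each), a log2 fold change of 2.64 with a standard error of 1.31 (edgeR, unadjusted p = 0.0581, adjusted p = 0.844). The groups overlapped, since 31-day rat 3 fell below healthy rat 2. By mean FPKM, Alb ranked 130 in the healthy group and 13 at 31 days. Tf, encoding the iron carrier transferrin, had 807, 1565 and 663 CPM against 6465, 5691 and 1076 CPM (log2 fold change 2.12, standard error 0.87, edgeR unadjusted p = 0.0245). Rbp4, which carries retinol, had 124.8, 171.6 and 37.5 CPM against 1151, 754 and 163.5 CPM (log2 fold change 2.63, standard error 1.09, edgeR unadjusted p = 0.0252). Apoc3, an inhibitor of lipoprotein lipase, had 23.9, 40.7 and 9.33 CPM against 350, 237 and 33.6 CPM. For each of these genes 31-day rats 1 and 2 were above each healthy rat, and 31-day rat 3 was not.

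Genes of hepatocyte metabolism lay in the same direction, and more of them were apart between groups. All 46 members tested had a positive log2 fold change, with a median of 2.07 (1.61 to 2.95 with each library left out in turn). EdgeR called none, and 5 of 46 were higher at an unadjusted p under 0.05 and over 1.5-fold, beside 0.971% of all genes. DESeq2 called 1 as higher, Cyp4a1, beside 1.14% of all genes. The summed level was 1087, 1446 and 537 CPM in healthy rats and 6822, 4677 and 1928 CPM in 31-day rats, so that each 31-day library lay above each healthy one. For 18 of 46 genes (39.1%) the groups did not overlap, beside 4.34% of all genes tested. Hpd, an enzyme of tyrosine breakdown, had 94.7, 66.7 and 10.5 CPM in healthy rats and 550, 461.5 and 213.7 CPM in 31-day rats (57.3 ± 42.9 and 408 ± 174, SD, n = 3), a log2 fold change of 2.83 with a standard error of 1.07 (edgeR, unadjusted p = 0.0151, adjusted p = 0.844). The next 5 genes, singled out after their values were seen, act in the making of glucose or in detoxification. G6pc, the last enzyme of glucose release, had 0, 4.19 and 1.57 CPM against 125.5, 53.8 and 27.97 CPM. Pck1, which commits carbon to new glucose, had 3.72, 46.6 and 5.77 CPM against 271, 199.5 and 148.7 CPM. Tat, which degrades tyrosine for the same pathway, had 2.16, 6.72 and 0 CPM against 100.7, 41.6 and 36.6 CPM. Cyp2e1, a cytochrome P450 that oxidizes ethanol and solvents, had 31.98, 32.3 and 6.58 CPM against 448, 289 and 80.97 CPM. Adh1, the alcohol dehydrogenase, had 15.2, 17.3 and 8.10 CPM against 219.6, 233.9 and 23.2 CPM. All 5 are among the 18 genes without overlap, so their separation between groups adds nothing to that count.

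Gstm1, a glutathione transferase found in liver and elsewhere, overlapped, with 107.2, 112 and 43.4 CPM in healthy rats and 229.6, 267 and 91.4 CPM in 31-day rats. Cyp4a1, which hydroxylates fatty acids, had no count in the healthy group and 21.4, 13.8 and 0 CPM in 31-day rats. Its mean was at least 275-fold higher at 31 days, measured against a floor of 3 counts over the healthy group, a bound that covers counting error only. It was carried by 31-day rats 1 and 2, and without rat 1 the bound was 162-fold.

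Promoters of liver genes were searched because the members of both liver lists tested lay on the same side of 0. The short motif GTTAAT or its reverse complement ATTAAC, the core of sites bound by the liver factor HNF1, was searched on both strands in the 250 bases before the start of each gene in the RefSeq table of the GRCr8 build. It was found in 12 of the 43 liver plasma protein genes (27.9%) and 6 of the 34 hepatocyte metabolism genes (17.6%) that matched by symbol, in 6.45% of all 33469 promoters and in 4.2% of the 10359 matched genes that were tested. The 2 promoters below are those of Alb (chr14:17906980-17907229, minus strand) and Hpd (chr12:39041996-39042245, plus strand), each read 5′ to 3′ up to the base before the start, with the motif in capitals. Some other lists with fewer promoters had shares in the same range, at 3 of 14 for MHC class I (21.4%) and 3 of 17 for neutrophil genes (17.6%). Both promoters shown carry the motif, and those of Tf, Rbp4 and Gstm1, searched in the same way, do not. A match describes the letters and is not evidence of binding.
Alb: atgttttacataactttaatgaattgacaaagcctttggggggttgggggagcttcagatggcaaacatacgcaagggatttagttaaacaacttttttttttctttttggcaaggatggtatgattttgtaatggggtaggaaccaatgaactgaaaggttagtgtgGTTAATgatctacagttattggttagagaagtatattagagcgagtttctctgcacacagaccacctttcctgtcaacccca
Hpd: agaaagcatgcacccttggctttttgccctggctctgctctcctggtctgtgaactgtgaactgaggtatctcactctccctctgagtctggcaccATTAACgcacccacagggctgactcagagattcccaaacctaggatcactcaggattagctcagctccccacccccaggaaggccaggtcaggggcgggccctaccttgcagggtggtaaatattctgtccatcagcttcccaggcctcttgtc

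Other lists of the secretory and oxidative machinery were shifted less. In endoplasmic reticulum protein processing, the pathway that folds secreted proteins, 45 of 58 members had a positive log2 fold change, with a median of 0.47 (0.30 to 0.80 with each library left out). At an unadjusted p under 0.05 and over 1.5-fold, 3 of 58 were higher, beside 0.971% of all genes. Calr, a calcium-binding chaperone of that compartment, had 312.7, 314.7 and 349.5 CPM in healthy rats and 817, 814 and 472.5 CPM in 31-day rats, without overlap (log2 fold change 1.11, standard error 0.42, edgeR unadjusted p = 0.0159, adjusted p = 0.844). Hsp90b1, the chaperone GRP94, had 156.2, 238.4 and 120.1 CPM against 862, 775 and 169.8 CPM, and Pdia3, a disulfide isomerase, had 120.9, 155.1 and 97.7 CPM against 354, 303 and 125.7 CPM. In both genes 31-day rat 3 fell within the range of the healthy rats.

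Among peroxisome genes, 26 of 32 were positive with a median of 0.68, and the summed level of 993, 1095 and 1072 CPM in healthy rats lay below the 1871, 1891 and 1187 CPM of 31-day rats. Phyh, which starts the breakdown of phytanic acid, had 41.1, 86.1 and 32.3 CPM against 284.4, 213.3 and 72.3 CPM. Agps, an enzyme of ether lipid synthesis, went the other way, with 58.5, 86.2 and 83.7 CPM against 40.7, 30.4 and 36.2 CPM and no overlap. Nuclear genes of oxidative phosphorylation had a summed level of 6152, 5300 and 6139 CPM in healthy rats and of 6720, 6643 and 6512 CPM in 31-day rats. The median over its 70 members was 0.26, 16 were without overlap on the higher side (22.9%, beside 4.34% of all genes) and 4 on the lower side (5.71%, beside 7.84%), and neither edgeR nor DESeq2 called any. Uqcrq, a subunit of complex III, had 84.1, 84.7 and 95.3 CPM against 182.4, 180.6 and 117.6 CPM (log2 fold change 0.86, standard error 0.36, edgeR unadjusted p = 0.028). Ndufa8 and Ndufs5, subunits of complex I, had log2 fold changes of 0.85 and 0.67. Members of the tricarboxylic acid cycle were split, with 13 of 22 positive, a median of 0.10 and no gene with an unadjusted p under 0.05.

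In the antioxidant list 14 of 19 genes were positive with a median of 0.53, which stayed between 0.42 and 0.62 with each library left out. The summed level was 2626, 3350 and 3711 CPM in healthy rats and 3808, 3907 and 5073 CPM in 31-day rats. Prdx1, which reduces peroxides, had 70.2, 32.0 and 46.7 CPM against 151.3, 107.9 and 127.4 CPM (log2 fold change 1.38, standard error 0.40, edgeR unadjusted p = 0.00267, adjusted p = 0.844). Cat, catalase, had 346, 295 and 472.6 CPM against 601, 671 and 623 CPM, and 31-day levels were above each healthy level in both genes. Park7, a redox-sensitive protein also called DJ-1 and named by the study for plasma, had 78.1, 57.0 and 60.1 CPM against 96.3, 80.4 and 118.1 CPM, without overlap and with a log2 fold change of 0.59 (standard error 0.39, edgeR unadjusted p = 0.141). Prdx6, a peroxiredoxin also named there, overlapped, at 81.6, 132.3 and 48.9 CPM against 198.8, 238.1 and 95.3 CPM. Gsr, glutathione reductase, was lower at 31 days, with 116.2, 134.7 and 110.1 CPM against 67.5, 49.9 and 61.9 CPM (log2 fold change −1.01, standard error 0.44, edgeR unadjusted p = 0.0317).

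**Figure D2:**
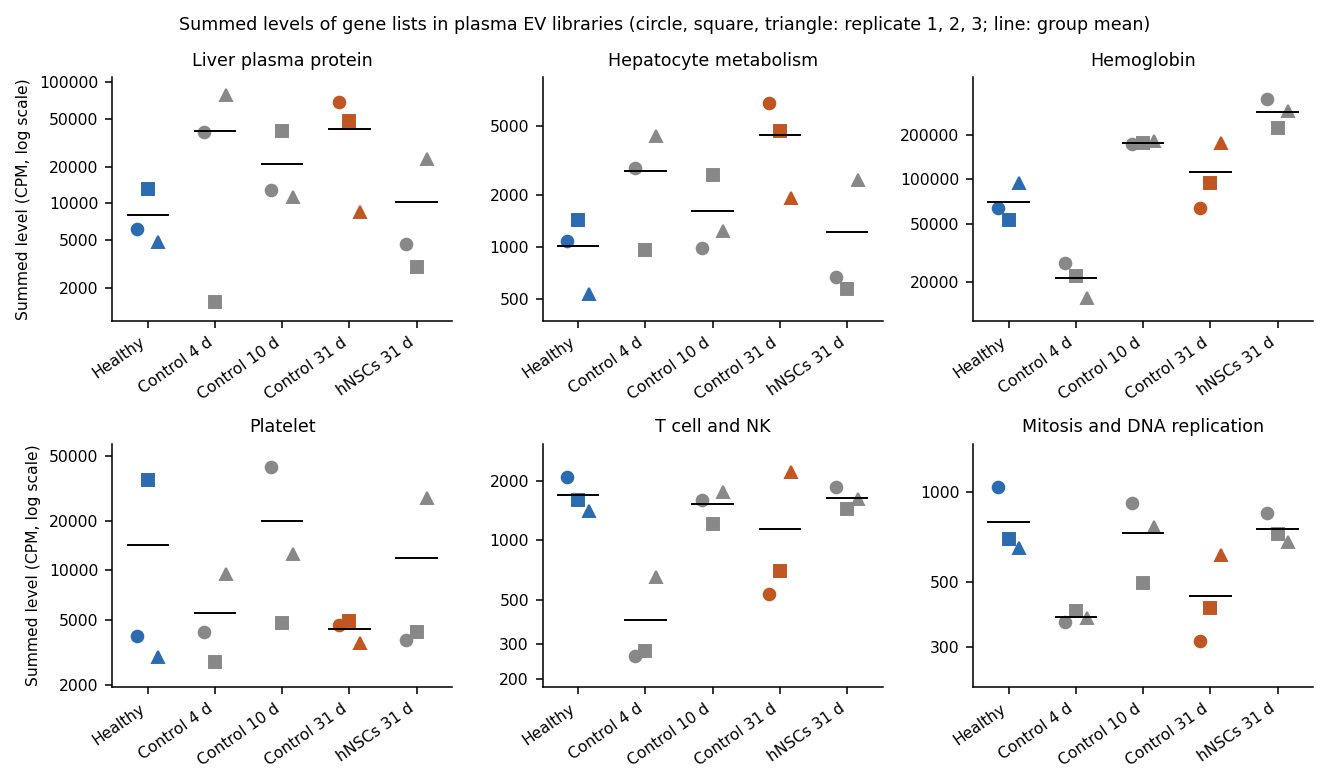
Summed CPM of 6 gene lists on a log axis for each plasma EV mRNA library of 5 groups, with a line at each group mean. Rats 1 and 2 of the 31-day control group hold 68177 and 47668 CPM of liver plasma protein mRNA, and healthy rat 2 holds 35835 CPM of platelet mRNA against 2963 to 4912 CPM in the other libraries of these 2 groups.

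Red cell mRNA was higher on average at 31 days, with groups that overlapped. The 9 hemoglobin genes tested summed to 63592, 52839 and 94546 CPM in healthy rats and 64097, 94557 and 175480 CPM in 31-day rats. All 9 had a positive log2 fold change (median 0.53), and all 9 had their highest level in 31-day rat 3. Without that library the median was −0.0025. Hba1 had 22833, 16205 and 33241 CPM against 24000, 35847 and 66323 CPM, a log2 fold change of 0.80 with a standard error of 0.45 (edgeR, unadjusted p = 0.0911). Hba2 had 23846, 22138 and 35751 CPM against 25598, 36957 and 68139 CPM. Of 35 erythroid genes 28 were positive with a median of 0.57, which was 0.09 without 31-day rat 3. Alas2, the first enzyme of heme synthesis in red cell precursors, had 942, 504 and 1297 CPM against 1075, 1581 and 2631 CPM (log2 fold change 0.95, standard error 0.50, edgeR unadjusted p = 0.0721). Tspo2, an erythroid membrane protein, had no count in healthy rats and 7.82, 0 and 6.37 CPM in 31-day rats, a mean at least 111-fold higher against the floor (standard error of the log2 fold change 3.63). Tal1, a transcription factor of red cell and platelet precursors, had 59.3, 2796 and 47.5 CPM in healthy rats and 36.2, 61.9 and 85.8 CPM at 31 days, and its log2 fold change turned from −3.98 to 0.20 without healthy rat 2.

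Platelet mRNA rested on 1 library. Of 30 platelet genes 29 had a negative log2 fold change, and the median was −1.78. Of the 30, 8 were lower at an unadjusted p under 0.05 and over 1.5-fold, beside 3.78% of all genes. Without healthy rat 2 the median was 0.43. The summed level of 4607, 4912 and 3581 CPM in 31-day rats lay close to the 3967 and 2963 CPM of healthy rats 1 and 3. Pf4, platelet factor 4, had 1121, 13466 and 729 CPM in healthy rats and 1205, 1609 and 976 CPM in 31-day rats. Its log2 fold change was −2.02 (standard error 1.17, edgeR unadjusted p = 0.101) with all libraries and 0.45 without healthy rat 2. Itgb3, the beta chain of the fibrinogen receptor, had 69.98, 2185 and 47.8 CPM against 58.0, 62.4 and 33.3 CPM, and Thbs1, thrombospondin 1, had 33.6, 768 and 18.96 CPM against 21.96, 33.97 and 35.9 CPM. Their log2 fold changes of −3.90 and −3.16 became −0.20 and 0.22 without healthy rat 2. Bin2, an adaptor of platelets and white cells, was lower in each 31-day rat, with 288.3, 1254 and 334.4 CPM against 137.3, 81.0 and 261.5 CPM. Its log2 fold change was −1.97 (standard error 0.67, edgeR unadjusted p = 0.00797) and −0.96 without healthy rat 2.

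T cell, B cell and neutrophil lists had negative medians, and many of their members were sparse. In the T cell and NK list 7 of 40 genes had a positive log2 fold change, and the median was −0.47. The summed level was 2099, 1603 and 1410 CPM in healthy rats and 539, 698 and 2205 CPM in 31-day rats, so that 31-day rat 3 was the highest of the 6 and rats 1 and 2 the lowest. Without 31-day rat 3 the median was −1.69. Ccr7, a homing receptor of naive T cells, had 9.00, 4.80 and 8.99 CPM in healthy rats and no count in the 3 rats at 31 days, a mean at least 204-fold lower against the floor. The standard error of its log2 fold change was 4.41 (edgeR, adjusted p = 0.844). Ccr7 was also at 0 in each hNSCs library at 31 days and had a median of 0 CPM in the control group at 4 and 10 days. Ncr1, an activating receptor of NK cells, had 5.99, 0 and 7.64 CPM against no count, at least 122-fold lower and at least 80.4-fold without healthy rat 3. Its standard error was 4.11, and its medians in the control group at 4 and 10 days were 2.01 and 3.18 CPM. Cd3e, the signalling chain of the T cell receptor complex, had 13.96, 9.59 and 7.93 CPM against 4.44, 0 and 3.97 CPM, without overlap (log2 fold change −1.90, standard error 3.21, edgeR unadjusted p = 0.561).

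B cell genes had a median of −0.99 over 18 members and of −2.89 without 31-day rat 3, and their sums were 689, 427 and 814 CPM against 198, 177 and 663 CPM. Pou2af1, a coactivator of B cells, had 102.6, 18.5 and 96.4 CPM against 4.06, 15.1 and 34.3 CPM. Bank1, a B cell scaffold protein, had 97.0, 43.1 and 107.7 CPM against 14.8, 8.05 and 47.1 CPM. In neither gene were the groups apart. Cr2, the complement receptor of B cells, had 27.8, 172 and 26.0 CPM against 21.6, 8.86 and 14.9 CPM, and its log2 fold change of −2.31 was −0.83 without healthy rat 2. For MHC class II, which presents peptides to CD4+ T cells, the median over 10 genes was −0.81 and no gene had an unadjusted p under 0.05.

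In the neutrophil list 28 genes were tested, with a median of −0.76 (−1.64 without 31-day rat 3). Cxcr2, the receptor that draws neutrophils to chemokines, had 3.69, 1.92 and 11.03 CPM in healthy rats and no count at 31 days, at least 149-fold lower and at least 75.3-fold without healthy rat 3. Its standard error was 3.28 (edgeR, adjusted p = 0.844). In the control group its level was 12.6 to 51.8 CPM at 4 days, with a median of 0 CPM at 10 days. Elane, neutrophil elastase, had 1.05, 0.87 and 1.19 CPM against no count, at least 27.9-fold lower (standard error of the log2 fold change 3.16). Mmp9, a gelatinase of neutrophil granules, had 46.7, 0 and 1.27 CPM against no count, so its difference rested on healthy rat 1. Of 24 monocyte and macrophage genes 11 were positive and the median was −0.05. Spic, a factor of red pulp macrophages, had 11.2, 5.41 and 1.31 CPM against no count. Hmox1, heme oxygenase, had 94.0, 24.7 and 32.7 CPM against 6.08, 5.08 and 13.7 CPM, and Slc40a1, the iron exporter, had 67.6, 334 and 14.1 CPM against 35.01, 37.5 and 21.1 CPM. The groups did not overlap for Hmox1 and overlapped for Slc40a1. None of these white cell genes was called by edgeR. DESeq2 called as lower 2 of 40 T cell and NK genes, 3 of 28 neutrophil genes, 1 of 24 monocyte and macrophage genes and 0 of 18 B cell genes, beside 3.27% of all genes.

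In the mitosis and DNA replication list 5 of 30 genes were positive and the median was −0.76 (−1.41 to −0.42 with each library left out). The sums of 1045, 697 and 650 CPM in healthy rats lay above the 314, 408 and 615 CPM of 31-day rats, and 7 genes (23.3%) did not overlap on the lower side, beside 7.84% of all genes. Birc5, the survivin of the spindle midzone, had 25.5, 1.22 and 2.67 CPM in healthy rats, and Ccnb2, a mitotic cyclin, had 6.30, 1.66 and 10.1 CPM. Aurka, a kinase of the spindle poles, had 18.0, 0 and 4.71 CPM. All 3 had no count at 31 days, and their means were at least 263, 162 and 204-fold lower. Standard errors of these log2 fold changes were 4.56, 4.25 and 4.03 (edgeR, adjusted p = 0.844 for each). Ccnb2 was also at 0 in each control library at 4 and 10 days and each hNSCs library at 31 days. Birc5 had a median of 0 CPM in the control group at 4 and 10 days. The medians of Aurka there were 18.9 and 0 CPM. The bounds for Birc5 and Aurka were 52.3 and 63.3-fold without healthy rat 1, and that for Ccnb2 was 107-fold without healthy rat 3.

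**Figure D3:**
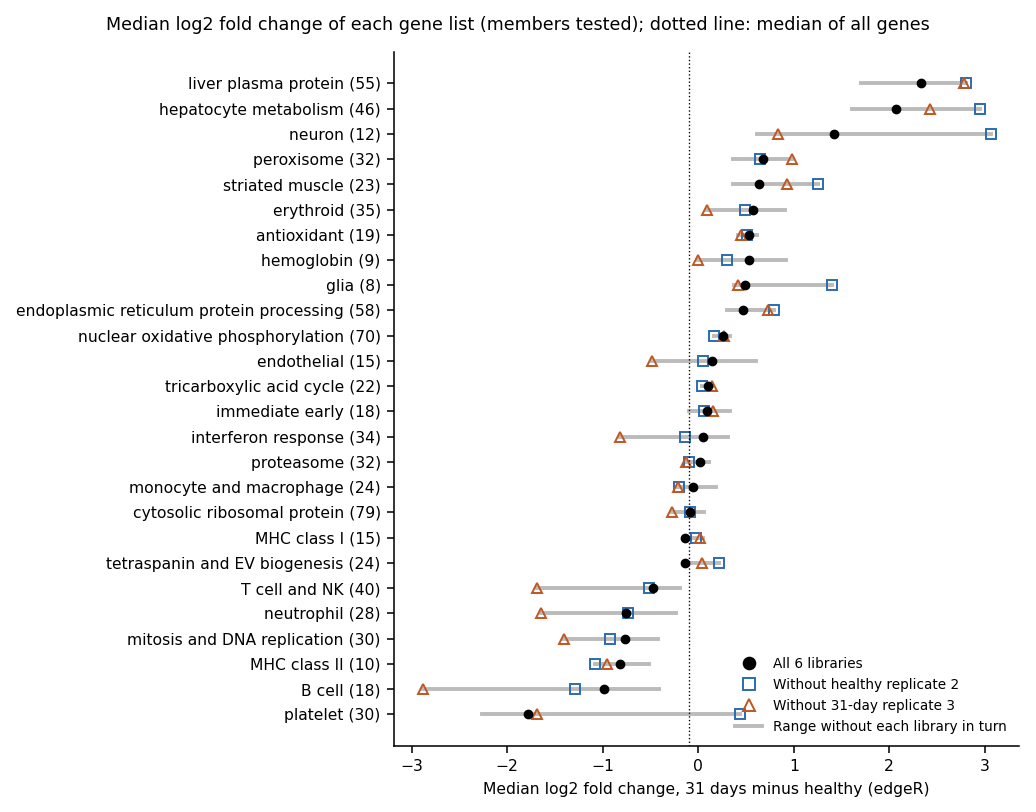
Median log2 fold change (31 days minus healthy, edgeR) of the members of each of 26 gene lists with all 6 libraries, without healthy rat 2, without 31-day rat 3, and as the range with each library left out. The 2 liver lists stay at 1.61 or more, but each fit keeps 31-day rat 1 or 2, which hold the highest sums of these lists. The platelet median moves from −1.78 to 0.43 without healthy rat 2 and the hemoglobin median from 0.53 to −0.0025 without 31-day rat 3.

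The 12 genes with the smallest unadjusted p are given in each direction. EdgeR called none of them, whereas DESeq2 called 12 of the 12 higher and 11 of the 12 lower, Vash1 having no adjusted p there. Over all genes DESeq2 called 1.14% higher and 3.27% lower. These genes were picked by p from the same counts, so the DESeq2 calls are not separate support. All 12 genes higher at 31 days had levels that did not overlap between the 3 + 3 libraries (4.34% of all genes), which a choice by p favours. Procr, the endothelial receptor of protein C, had 20.7, 18.8 and 14.9 CPM in healthy rats and 79.2, 80.8 and 31.4 CPM in 31-day rats (18.2 ± 2.94 and 63.8 ± 28.0, SD, n = 3), a log2 fold change of 1.81 with a standard error of 0.48 (edgeR, unadjusted p = 0.00112, adjusted p = 0.844). Dnaja1, a cochaperone of the heat shock protein Hsp70, had 188.6, 131.5 and 165.6 CPM against 481, 353 and 234.3 CPM, and its log2 fold change was 1.14 with a standard error of 0.32 (edgeR, unadjusted p = 0.00178). St13, an adaptor of the same chaperone, had 105.6, 93.9 and 109.3 CPM against 348, 237.7 and 178.9 CPM (log2 fold change 1.31). Hspa8, the constitutive member of the Hsp70 family and a cargo protein of EVs, had 934, 605 and 741 CPM against 1880, 1224 and 1437 CPM (log2 fold change 0.99). Hspa1a, a stress-induced Hsp70, had 11.7, 7.15 and 2.46 CPM against 128.4, 74.5 and 16.05 CPM, and LOC108348108 tracked it, with 10.2, 6.72 and 2.38 CPM against 122.4, 69.5 and 15.2 CPM. The value of Hspa1a is uncertain where reads are shared with its near-identical copy in the genome.

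Fmo2, a flavin monooxygenase, had 12.3, 34.4 and 4.96 CPM in healthy rats and 103.4, 94.4 and 45.4 CPM in 31-day rats, and its log2 fold change of 2.24 was 3.23 without healthy rat 2. Aldh9a1, an aldehyde dehydrogenase, had 57.3, 48.9 and 45.0 CPM against 170.3, 141.1 and 114.5 CPM (log2 fold change 1.49). Slc25a4, the ADP and ATP carrier of mitochondria, had 181.9, 227.6 and 166 CPM against 470, 483 and 247.4 CPM (log2 fold change 1.06). Tsc22d3, a gene induced by glucocorticoids, had 106.3, 186.4 and 176.2 CPM against 445.8, 313.5 and 291.9 CPM (log2 fold change 1.16). Dcn, the matrix proteoglycan decorin, had 67.2, 72.0 and 29.1 CPM against 343, 132.7 and 94.8 CPM (log2 fold change 1.76, and 1.02 without 31-day rat 1). In 10 of these 12 genes of smallest p, counting Prdx1, 31-day rat 3 was the lowest of its group.

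Among genes lower at 31 days, healthy rat 2 held the highest level in 11 of 12. Itpkb, a kinase of inositol trisphosphate, had the smallest p of all genes. Its levels were 98.9, 335.8 and 95.5 CPM in healthy rats and 33.3, 28.6 and 33.2 CPM in 31-day rats (176.7 ± 137.8 and 31.7 ± 2.67, SD, n = 3), a log2 fold change of −2.48 with a standard error of 0.47 (edgeR, unadjusted p = 3.76e-05, adjusted p = 0.554). Without healthy rat 2 it was −1.62. Among the 11 genes highest in that rat, Skil, a repressor of TGF-beta signalling, depended least on it. Skil had 138.6, 156.9 and 99.9 CPM against 33.2, 35.3 and 33.9 CPM. Its log2 fold change was −1.95 (standard error 0.47, edgeR unadjusted p = 0.000463), and −1.80 without healthy rat 2. Cbl, a ubiquitin ligase of receptors, had 132.4, 378 and 203.4 CPM against 62.0, 46.2 and 71.4 CPM. Nsd1, a histone methyltransferase, had 175.2, 546 and 231.3 CPM against 128.8, 127.6 and 92.7 CPM.

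Dus2, a dihydrouridine synthase of tRNA, had 12.4, 7.06 and 13.2 CPM in healthy rats and no count in the 3 rats at 31 days, at least 293-fold lower against the floor. Its level was 4.56 to 14.4 CPM in the control group at 4 days and 16.3 to 33.2 CPM at 10 days. Of all genes, 107 were without a count in each 31-day library and had at least 20 counts in each healthy library, and 9 showed the reverse. Zeros were most frequent in 31-day rat 3, with 1089 among 9673 genes of a plasma median over 100 counts. Each other library compared had at most 376. The part of 31-day rat 3 in this imbalance was not tested. Arrb1, Elk4, Mafg, Etnk1, Pitpnm2 and Tuba4a lay lower in each 31-day rat than in each healthy rat, and their log2 fold changes of −3.36, −3.11, −4.70, −2.85, −3.31 and −2.36 became −1.24, −1.25, −1.01, −1.72, −0.92 and −0.88 without healthy rat 2. Mafg, a small Maf factor needed for platelet formation, had 52.2, 1659 and 38.0 CPM against 21.9, 14.9 and 30.3 CPM. Arrb1, beta-arrestin 1, had 122.7, 1709 and 187.6 CPM against 53.9, 57.2 and 85.7 CPM. Vash1, an inhibitor of vessel growth, had 25.5, 2563 and 40.3 CPM against 26.0, 37.3 and 37.2 CPM, so that healthy rat 2 stood alone.

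**Figure D4:**
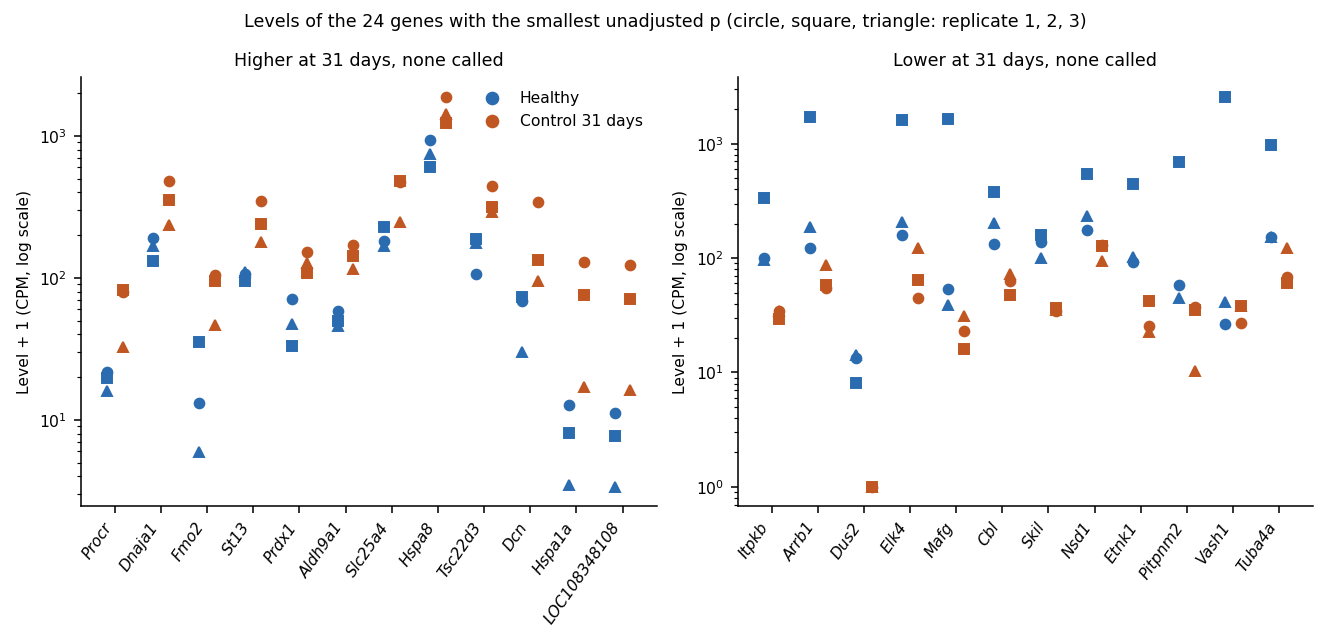
Level plus 1 in CPM on a log axis of the 12 genes per direction with the smallest unadjusted p, for 3 healthy (blue) and 3 control 31-day libraries (orange). In the right panel healthy rat 2 (square) is highest for 11 of 12 genes, and Dus2 is at 0 CPM in the 3 libraries at 31 days.

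Immediate early genes, the transcription factors that respond first to a stimulus, were divided, with 10 of 18 positive and a median of 0.09. Jun, an AP-1 subunit named by the study for plasma, had 34.4, 36.8 and 37.2 CPM in healthy rats and 147.7, 87.3 and 85.8 CPM in 31-day rats (36.2 ± 1.502 and 106.9 ± 35.3, SD, n = 3), a log2 fold change of 1.56 with a standard error of 0.71 (edgeR, unadjusted p = 0.0403, adjusted p = 0.844). It was 1.26 to 1.70 with each library left out. Dusp1, a phosphatase of MAP kinases, also did not overlap, with 37.2, 21.2 and 30.1 CPM against 79.2, 64.9 and 44.2 CPM. Fosb was without a count in healthy rats and had 15.7, 2.30 and 0 CPM in 31-day rats.

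The EV biogenesis list had a median of −0.14 over 24 members, which was 0.21 without healthy rat 2. For 3 members, Hspa8 among them, the groups did not overlap on the higher side (12.5%, beside 4.34% of all genes). For 2 members they did not overlap on the lower side (8.33%, beside 7.84%). Rab27a, a small GTPase that docks vesicles for release, was lower in each 31-day rat, with 186.1, 176.3 and 217.3 CPM against 53.9, 52.6 and 134 CPM (log2 fold change −1.27, standard error 0.45, edgeR unadjusted p = 0.0106). Its paralog Rab27b, which platelets express, had 58.0, 3071 and 34.7 CPM against 49.3, 78.3 and 69.7 CPM, and its log2 fold change turned from −4.003 to 0.50 without healthy rat 2. Medians were −0.08 for 79 cytosolic ribosomal proteins, 0.02 for 32 proteasome subunits and −0.14 for 15 MHC class I genes. The median of 34 interferon response genes was 0.05 with all libraries and −0.82 without 31-day rat 3. Among ribosomal proteins, Rps10 had 778, 784 and 758 CPM against 477, 464 and 655 CPM, Rps28 had 150.5, 205.6 and 232.6 CPM against 131.0, 136.4 and 112.8 CPM, and Rpl6 overlapped. Psmd7, a subunit of the proteasome cap, had 82.1, 71.6 and 94.6 CPM against 113.8, 193.8 and 156.9 CPM. Ifih1, a sensor of viral RNA, had 49.5, 33.2 and 51.1 CPM against 22.3, 18.2 and 29.1 CPM. B2m, the light chain of MHC class I, had 1133, 6941 and 918 CPM against 1135, 1194 and 1426 CPM, and its log2 fold change turned from −1.26 to 0.29 without healthy rat 2.

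Endothelial genes had a median of 0.14 over 15 members, 9 of them positive, and of −0.48 without 31-day rat 3. For 3 of the 15 the groups did not overlap on the higher side (20%, beside 4.34% of all genes). For 2 they did not overlap on the lower side (13.3%, beside 7.84%). Stab1, a scavenger receptor of sinusoidal endothelium, had no count in healthy rats and 0, 8.05 and 22.5 CPM in 31-day rats (edgeR unadjusted p = 0.0338), a mean at least 239-fold higher against the floor and at least 94.3-fold without 31-day rat 3. Pecam1, an adhesion protein of vessels and platelets, was lower in each 31-day rat, with 69.4, 69.8 and 86.5 CPM against 37.1, 35.02 and 60.5 CPM (log2 fold change −0.77, standard error 0.43, edgeR unadjusted p = 0.0894). Vwf, von Willebrand factor, turned from −1.42 to 0.05 without healthy rat 2. Striated muscle genes summed to 519, 801 and 332 CPM in healthy rats and 1165, 932 and 587 CPM in 31-day rats, with a median of 0.64 over 23 members tested.

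Sums of some of these lists were set beside those of the other plasma groups. Liver plasma protein sums ran from 1518 to 78284 CPM in the control group at 4 days, from 11204 to 39735 CPM at 10 days and from 2957 to 23211 CPM in the hNSCs group at 31 days, so that the 31-day control values lay within the range of the control group at 4 days. Hepatocyte metabolism sums ran from 963 to 4391 CPM at 4 days and from 993 to 2599 CPM at 10 days. Rats 1 and 2 of the 31-day control group, at 6822 and 4677 CPM, lay above each of these. Hemoglobin sums ran from 15497 to 26788 CPM at 4 days, from 174855 to 181125 CPM at 10 days and from 222811 to 352817 CPM in the hNSCs group at 31 days. The 31-day control libraries were thus all above the control group at 4 days in hemoglobin, and 2 of them lay below each library at 10 days. Sums at 4 days were 366 to 397 CPM for mitosis and DNA replication, 260 to 654 CPM for T cell and NK and 92.2 to 291 CPM for B cell genes. In these 3 lists each 4-day control library lay below each healthy one, so low sums were not particular to 31 days. Between 31 and 4 days edgeR called 25 genes (0.17%), all higher at 31 days, among them 5 hemoglobin and 8 erythroid genes. The count was 0 with these 2 groups fitted alone, 11 without 31-day rat 3, 8 without 4-day rat 2 and 9 without 4-day rat 3. Between 31 and 10 days edgeR called no gene, with 579 genes higher and 348 lower at an unadjusted p under 0.05, and DESeq2 called 1333.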

How the data were processed

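RNA of plasma EVs, isolated by size exclusion chromatography (the labels' extraction text says serum), was sequenced with a stranded total RNA kit. The authors aligned reads to Rnor_6.0 with Bowtie2 and deposited counts per gene together with FPKM values (StringTie, scaled to transcript length and depth). The counting tool and its strand setting are not given in the sources used here. Without unique molecular identifiers, counts are not independent molecules, and floors cover counting error only.

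Counts of annotated genes were analysed in R 4.3.3 with edgeR 4.0.16 (filterByExpr, TMM, quasi-likelihood test), with 21 plasma libraries in 7 groups in one model. Of 18782 annotated genes, 14720 passed the filter. A call required over 1.5-fold and p under 0.05 after Benjamini-Hochberg adjustment. Rats of a group were labelled as biological replicates. The edgeR p-values set each difference against the spread between rats within groups, estimated over all 7 groups. FPKM values were tested with limma 3.58.1 on log2(FPKM + 1), and counts also with DESeq2 1.42.0.

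Named genes were up to 12 called genes per direction, filled up, as none was called, with those of smallest unadjusted p, up to 3 members of each list by p, and Hba1, Hba2, Park7, Prdx6 and Jun, which the study names for plasma, with the markers Alb, Pf4, Cd3e and Alas2. Members, lists and this rule were chosen with earlier results of these data known. The 27 lists include 1 of mitochondrially encoded genes, none of which is in the table analysed here. The alternatives were other tests, scalings and filters, a replicate block and each library left out. Brain and miRNA libraries (63) were not used here. Results of some genes are not reported here.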

Additional observations from a re-analysis of the deposited data

Results flagged for a closer look

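Between the control groups at 31 and 4 days, edgeR called 25 genes, all higher at 31 days (0.17% of 14720 genes, smallest adjusted p = 0.00149), and this difference between time points is why they are listed here. The count was 0 with the 2 groups fitted alone and as low as 8 with 1 library left out (4-day rat 2). Of the 25, 5 were hemoglobin genes, 8 were on the erythroid list and 12 on neither. Alas2, the first enzyme of heme synthesis in red cell precursors, had a mean of 92.3 ± 19.5 CPM at 4 days and 1762 ± 794 CPM at 31 days (SD, n = 3 each), a log2 fold change of 4.26 with a standard error of 0.56 (edgeR, adjusted p = 0.00149). Hba1 had 6906 ± 2122 CPM and 42057 ± 21834 CPM (log2 fold change 2.61, edgeR adjusted p = 0.0260). Kel, a blood group antigen of red cells, had a mean of 95.6 ± 59.4 CPM (SD, n = 3) at 31 days and no count at 4 days, and 6 of the 25 genes had no count at 4 days. Against the healthy group the 25 genes had log2 fold changes from −0.75 to 1.76, of which 24 were positive, 2 had an unadjusted p under 0.05 and none was called.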

How the results depend on the processing

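EdgeR called 0 genes in either direction between 31 days and healthy without a filter, with the 2 groups alone, without hemoglobin genes and with each library left out (0 to 0). The counts higher and lower were 168 and 481 with DESeq2, 3 and 3 with limma on log2(FPKM + 1), 1 and 2 on log2(FPKM + 0.1), and 143 and 556 at an unadjusted p under 0.05. Limma voom with library weights, chosen after seeing the data, called 140 and 304. Its weight was 0.24 for 31-day rat 3, against 1.07 to 2.17 for the other libraries compared, so that rat counted little in this fit. The cause of the differing counts was not tested. By their labels the rats of the 2 groups were different animals, so replicate numbers do not pair them. Deviations of rats with the same number correlated with r of −0.0051, 0.20 and 0.29. Those of rats with different numbers correlated with r from −0.26 to 0.16, and these values cannot decide whether rats were handled in parallel. With the replicate block the counts were 0 and 0, and 19 for 31 against 4 days.

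For 31 against 4 days (25 genes), DESeq2 called 920, voom 51 and the fit of 2 groups alone 0. With each library left out the count ran from 8 to 30, and it was 11 without 31-day rat 3, 8 without 4-day rat 2 and 9 without 4-day rat 3. For 31 against 10 days (0 genes), DESeq2 called 1333, voom 148 and limma on log2(FPKM + 1) 12, and the count ran from 0 to 2 with each library left out. The 2 genes, Lztr1 and Lrch3, were called without 10-day rat 1.

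Of 1522 values of 103 named genes under the alternatives, 1449 kept direction and side of the threshold, 61 were newly called (37 with DESeq2 and 24 with voom) and 12 in 9 genes turned direction. With each library left out, the log2 fold change ran from −5.28 to 0.0247 for Vash1, from −4.54 to 0.20 for Tal1, from −3.71 to 0.22 for Thbs1, from −1.69 to 0.29 for B2m, from −4.57 to 0.50 for Rab27b, from −1.84 to 0.0525 for Vwf, from −2.53 to 0.45 for Pf4 and from −0.0413 to 0.78 for Psmb4. With voom Pf4 was 0.0005401 and Psmb4 −0.01911, and with limma Ogdh was 0.0139 and 0.0068 (pseudocounts 1 and 0.1). DESeq2 moved the median of all genes by 0.11.

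The median standard error was 3.22 for the 4412 genes with a mean of 1 to 10 CPM and 1.20 for the 7305 with 10 to 100 CPM.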

Other observations

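Genes without an annotation in the authors' build, assembled as new genes, were tested beside the annotated ones. Of 7855 new genes 1500 passed the filter and edgeR called none (smallest adjusted p = 0.811), with 10 higher and 55 lower at an unadjusted p under 0.05 and a median log2 fold change of −0.38.

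In healthy rat 2, 16 genes had at least 100 CPM and at least 50 times the level of each of the other 5 libraries compared, a limit chosen after seeing the data. No other of the 6 libraries had such a gene. Together they held 68557 CPM, 5.61% of the counts of this library, and 11 of the 16 carry LOC names. LOC102552169 had 13904 CPM against at most 3.83 CPM, and LOC102546456 had 12334 CPM against at most 2.59 CPM. Pde5a, a cGMP phosphodiesterase, had 4901 CPM against at most 86.0 CPM. Elsewhere in plasma the 16 genes summed to 9828 CPM in rat 2 of the hNSCs group at 10 days, whose platelet sum was 5133 CPM, and to 884 CPM in rat 1 of the control group at 10 days, whose platelet sum was 42507 CPM. A part of these genes in the differences between groups was not tested.

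The few genes called by limma on log2(FPKM + 1) are sparse. Lace1, Akr1c1 and Dao were higher and LOC690862, LOC100910879 and Fbxl19 lower. Dao, the peroxisomal D-amino acid oxidase, had 0.60, 0 and 0 CPM in healthy rats and 8.40, 11.4 and 7.48 CPM in 31-day rats (limma adjusted p = 0.0143, edgeR adjusted p = 1).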
